A study of Mus musculus with 2 samples.

Results

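The genes described here are the 10 Notch pathway genes that were chosen by name from the 32286 features of each library: the receptors Notch1, Notch2 and Notch3, the ligands Dll1, Dll4, Jag1 and Jag2, and the effectors Hes1, Hey1 and Heyl. Their levels were followed across the cell classes of embryonic mouse skin in a control library and in a library with Hedgehog signalling switched on in the dermis. Each group had 1 library, so the groups were compared without a replicate check or a test, and every interval given here covers counting error only.

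Notch signalling passes between touching cells. A ligand of the Delta or Jagged family on one cell binds a receptor on its neighbour, the receptor is cut by gamma-secretase, and its freed inner part joins the DNA-binding protein Rbpj in the nucleus to switch on genes such as the Hes and Hey repressors. In skin and its underlying tissues the pathway is best known for the differentiation of the suprabasal epidermis, the choice of arterial fate in vessels, the recruitment of mural cells around them, and the upkeep of muscle progenitors.

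Cells came from skin of the dorsolateral flank of littermate embryos at stage E13.5, with 2 to 3 embryos pooled per library by genotype. The mutant library is titled as dermal SmoM2YFP mutant, from a cross of Axin2CreER mice, which carry an inducible recombinase under control of a Wnt-responsive gene, with Rosa-lox-STOP-lox-SmoM2YFP mice, in which recombination yields an active Smoothened joined to a yellow fluorescent protein. The title of the control library names SmoM2YFP without the recombinase, so the SmoM2YFP allele is named for both groups. Axin2 is not specific to the dermis, and the sources used here give no dose or time of induction. The genotype entries contradict the titles, with the mutant entry on the library titled control, and groups follow the titles. In dermal cells the Hedgehog target Ptch1 stood at 5.49 CPM (UMIs of a gene per 1000000 UMIs of the class) in the control and 236 CPM in the mutant library, Gli1 at 3.02 and 33.0 CPM, and eYFP had 26 and 659 UMIs, which goes with the titles.

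The control library held 13566 barcodes with 109629368 UMIs and the mutant library 11909 barcodes with 73809828 UMIs, and 48 barcodes occurred in both. After filters on genes, mitochondrial share and called doublets, 11553 control and 8521 mutant cells remained. Clusters were named from marker genes as dermal-like (8737 control and 4128 mutant cells), epidermal-like (554 and 1390), muscle-like (992 and 703), endothelial-like (142 and 161), mural-like (167 and 126), glial-like (359 and 182), melanoblast-like (73 and 49), macrophage-like (352 and 331), mast and other leukocyte-like (113 and 172) and erythroid-like (63 and 251). The suffix is left out from here on. Dermal cells of the libraries lay mostly in separate clusters, and cluster 23, with 1019 mutant cells and 1 control cell, stayed unnamed although all 11 dermal markers were detected in it; dermal ratios are given with and without it where that matters. Mural cells also carried dermal marker genes, at a sum of 4577 CPM in the control and 3575 CPM in the mutant library, and 10 of these 11 genes reached 10 CPM. The erythroid class carried them at 4944 and 3648 CPM. Whether RNA of dermal cells takes part in the Notch levels of these classes was not tested.

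All 10 genes are protein-coding and lie at these places of the mouse genome GRCm38. Notch1 is on chromosome 2 from 26457903 to 26516663 (minus strand), Notch2 on chromosome 3 from 98013527 to 98150361 (plus) and Notch3 on chromosome 17 from 32120820 to 32166852 (minus). Dll1 is also on chromosome 17, from 15367354 to 15376872 (minus). Dll4 is on chromosome 2 from 119325784 to 119335962 (plus), Jag1 on chromosome 2 from 137081456 to 137116644 (minus) and Jag2 on chromosome 12 from 112907819 to 112929776 (minus). Hes1 is on chromosome 16 from 30064384 to 30067796 (plus), Hey1 on chromosome 3 from 8663359 to 8667256 (minus) and Heyl on chromosome 4 from 123233556 to 123249875 (plus).

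Dll1 and Notch3, a ligand and a receptor, stood on opposite sides of a split within the muscle class that is described below, and their promoters are printed for that reason. Each line is the stretch of 250 bases before a transcription start, 5′ to 3′ on the minus strand, from RefSeq for GRCm38.p6. For Dll1 it is chr17:15376933-15377182, the promoter numbered 2 of the gene's 2 entries, and for Notch3 chr17:32166891-32167140. Capitals mark matches to CANNTG, the E-box letters bound by basic helix-loop-helix factors such as myogenin.
Dll1 promoter: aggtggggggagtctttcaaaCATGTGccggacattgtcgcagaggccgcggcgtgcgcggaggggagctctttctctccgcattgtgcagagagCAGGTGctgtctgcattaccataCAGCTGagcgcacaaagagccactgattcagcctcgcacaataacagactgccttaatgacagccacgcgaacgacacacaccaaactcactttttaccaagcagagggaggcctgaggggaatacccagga
Notch3 promoter: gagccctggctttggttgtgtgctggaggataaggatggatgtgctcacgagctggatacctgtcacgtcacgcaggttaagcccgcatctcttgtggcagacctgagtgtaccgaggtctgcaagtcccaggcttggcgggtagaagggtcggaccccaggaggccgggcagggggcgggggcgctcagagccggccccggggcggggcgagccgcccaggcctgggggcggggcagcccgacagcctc
The Dll1 stretch holds 3 matches, starting 229, 155 and 132 bases before the start, of which the last reads CAGCTG, and the Notch3 stretch holds 0. The other Dll1 entry holds 1 match, CATTTG, starting 220 bases before its start, and no CAGCTG. Among the remaining genes with a promoter, the Jag1 stretch holds 1 match, a CAGCTG, and the others hold 0. Notch1, with 0 matches, lay on the same side of the muscle split as Dll1. Jag1 was low on both sides. It stood at 1.75 CPM in cells with a Myog UMI and 3.54 CPM in cells with Pax7 alone in the control library. In the mutant library it stood at 1.17 and 7.94 CPM. Whether the matches bear on the split was not tested. The motif is its own reverse complement in form, so one strand was searched. Among 32851 promoters of the same length 66.2% held at least 1 match and 12.2% at least 3, and CAGCTG alone occurred in 13%. RefSeq promoters were matched for 7 of the 10 genes, with 8 promoters in all. The letters TGGGAA, the core of the Rbpj site, were found on neither strand of these 8, against 21.6% of all promoters. A match of letters is a description and not a site of binding.

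The receptors had separate main locations. Notch1, the receptor best known from epidermis and vessels, stood at 110 CPM (interval 96.4 to 125) in control and 120 CPM (101 to 142) in mutant mural cells. It was next in endothelial cells at 78.4 and 77.7 CPM, in glial cells at 61.2 and 68.9 CPM and in epidermal cells at 49.0 and 66.2 CPM. Lower levels were those of melanoblasts at 36.5 and 35.5 CPM, macrophages at 22.4 and 20.7 CPM, muscle cells at 20.5 and 21.5 CPM and dermal cells at 15.6 and 19.5 CPM. The mural level was above the endothelial one in both libraries, by 1.40 times (1.11 to 1.79) and 1.55 times (1.19 to 2.03). The intervals of the endothelial, glial and epidermal levels overlapped from one neighbour to the next. Notch1 was thus found in every class of both libraries, with the lowest levels in mast and other leukocyte cells at 6.54 and 4.48 CPM and, in the control library, in erythroid cells with 2 UMIs.

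Notch2, the second widely expressed receptor, was the receptor whose highest level in the control library fell in dermal cells. It stood there at 42.0 CPM (40.4 to 43.6) in the control and 31.3 CPM (29.2 to 33.5) in the mutant library. Mast and other leukocyte cells, at 35.3 and 34.7 CPM, overlapped with the dermal level in both libraries and came first in the mutant one. Mural cells had 27.7 and 19.8 CPM, muscle cells 22.2 and 14.9 CPM, and epidermal cells 9.69 and 6.99 CPM. In endothelial cells, where Notch1 was high, Notch2 had 8 and 2 UMIs. Because the dermal class is the most numerous, it held 80.6% of all Notch2 UMIs of kept control cells and 58.4% of those of kept mutant cells.

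Notch3, the receptor of vascular smooth muscle and pericytes, was highest in mural cells, at 52.2 CPM (42.9 to 62.8) in the control and 74.9 CPM (60.0 to 92.4) in the mutant library. Muscle cells came next with 27.4 and 32.7 CPM, so the mural level was 1.91 times (1.53 to 2.36) and 2.29 times (1.76 to 2.95) higher. Dermal cells had 9.40 and 14.2 CPM and epidermal cells 2.94 and 2.69 CPM. Notch3 had 0 UMIs in control and 2 in mutant endothelial cells. Endothelial and mural cells thus shared Notch1, and Notch3 lay on the mural side. After each cell was thinned to 3000 UMIs, 12% of control and 20.2% of mutant mural cells had a Notch3 UMI, and 7.86% and 9.04% of muscle cells. Among macrophages 0 of 348 control and 0 of 319 mutant cells had one, where 3 cells would make shares of 0.862% and 0.940%. Median depths were 11791 and 8171 UMIs per cell in mural cells and 11125.5 and 8709 in macrophages. Before thinning, the mural shares were 41.3% and 45.2%.

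The ligands were each concentrated in fewer classes than Notch1 or Notch2. Dll4, the Delta ligand of arterial and tip endothelial cells, had 32 UMIs in control and 36 in mutant endothelial cells, which makes 24.8 CPM (17 to 35.1) and 28.3 CPM (19.8 to 39.1). These were 91.4% of its UMIs in kept control cells and 92.3% in kept mutant cells. In the 2 libraries together, 4 Dll4 UMIs fell in dermal cells, 1 in erythroid cells and 1 in cluster 23, and 0 in epidermal, muscle, mural, glial, melanoblast and macrophage cells. At 3000 UMIs per cell 16 of 138 control and 18 of 155 mutant endothelial cells (11.6% in both) had a Dll4 UMI, against 0 of 548 and 0 of 1368 epidermal cells. In these epidermal classes 3 cells with a UMI would make shares of 0.547% and 0.219%. The unthinned endothelial shares were 17.6% and 20.5%.

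Dll1, the Delta ligand known from somites and muscle precursors, was highest in muscle cells at 16.2 CPM (14.2 to 18.3) in the control and 16.0 CPM (13 to 19.4) in the mutant library. Epidermal cells had 10.2 and 7.17 CPM, below the muscle level by 1.58 times (1.19 to 2.14) and 2.23 times (1.65 to 3.02). Macrophages, taken as background, had 2.14 and 3.34 CPM, and mutant endothelial cells had 5.50 CPM from 7 UMIs. After thinning, a Dll1 UMI was found in 3.88% and 4.30% of muscle cells and 3.83% and 2.27% of epidermal cells, against 0.575% and 1.25% of macrophages. By share of cells, the control muscle and epidermal classes could therefore not be ordered.

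The Jagged ligands were divided between the epidermis and the deeper tissue. Jag2 was highest in epidermal cells, at 32.2 CPM (27.7 to 37.2) in the control and 42.1 CPM (38.4 to 46.1) in the mutant library, and next in endothelial cells at 14 and 22.0 CPM. The epidermal level was 2.30 times (1.42 to 3.97) and 1.92 times (1.31 to 2.91) the endothelial one, and macrophages had 1 and 4 UMIs. Jag1, the ligand whose loss causes vessel defects in mice, was highest in mural cells at 41.8 and 49.1 CPM and in glial cells at 35.6 and 42.7 CPM, and these 2 levels overlapped. Both stood above endothelial cells (19.4 and 15.7 CPM) and epidermal cells (16.4 and 14.9 CPM). The glial level was 1.83 times (1.17 to 2.97) the endothelial level in the control library and 2.72 times (1.55 to 4.92) in the mutant library. Epidermal cells thus held Dll1, Jag1 and Jag2, and endothelial cells Dll4, Jag1 and Jag2; Dll1 in control endothelial cells, at 1.55 CPM from 2 UMIs, was not above the macrophage level.

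The effectors differed in breadth. Hes1, a basic helix-loop-helix repressor that other pathways also induce, was found in every class and was highest in mast and other leukocyte cells at 376 CPM (346 to 408) in the control and 424 CPM (394 to 455) in the mutant library. Epidermal cells followed with 207 and 143 CPM, mural cells with 141 and 130 CPM and dermal cells with 125 and 109 CPM. Melanoblasts had 87.6 and 90.4 CPM, erythroid cells 80.1 and 84.1 CPM, muscle cells 76.5 and 61.8 CPM and endothelial cells 62.9 and 46.3 CPM. Macrophages were lowest with 6.66 and 6.35 CPM. Leukocytes were thus split: at 3000 UMIs per cell 62.2% and 58.0% of mast and other leukocyte cells had a Hes1 UMI, against 1.72% and 0.940% of macrophages. Notch1 in the mast and other leukocyte class was at 6.54 and 4.48 CPM and Notch2 at 35.3 and 34.7 CPM.

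Hey1 and Heyl, repressors related to Hes1, were found in few classes. Hey1 was at 23.7 CPM (21.3 to 26.3) in control and 26.2 CPM (22.4 to 30.4) in mutant muscle cells, at 16.9 and 18.1 CPM in mural cells and at 16.3 and 20.4 CPM in endothelial cells, and the intervals of neighbours overlapped. Dermal and epidermal cells had at most 1.28 CPM. Heyl was at 68.6 CPM (58.0 to 80.7) in control and 74.9 CPM (60.0 to 92.4) in mutant mural cells and at 57.1 and 51.4 CPM in glial cells, which overlapped. Melanoblasts had 23.4 and 22.6 CPM and muscle cells 9.73 and 14.1 CPM. The classes with the highest Heyl were those with the highest Jag1. Hey1, whose leading class was not resolved, and Dll1 both had their highest value in muscle cells, but on opposite sides of a split described below. The plot of levels by class shows all 10 genes.

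**Figure D1:**
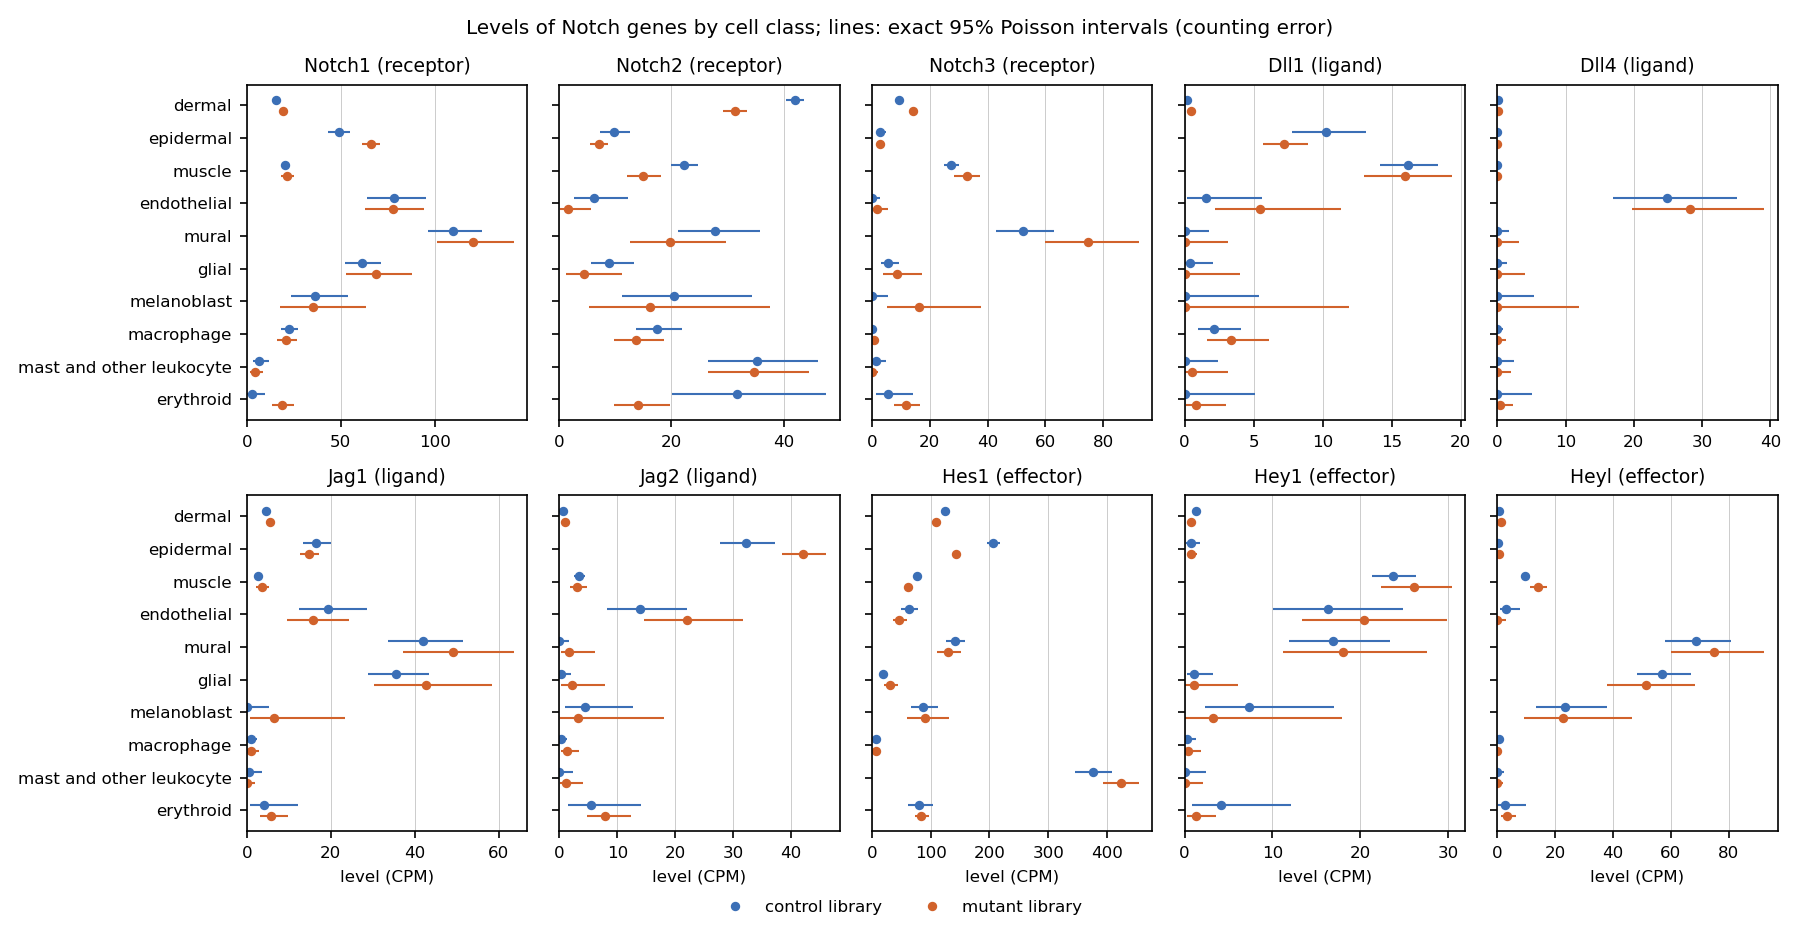
Level of each Notch gene (x axis, CPM from UMIs summed per class) in 10 cell classes (y axis) of the control and mutant libraries, 1 library each; points are levels and lines exact 95% Poisson intervals. Dll4 stands above 20 CPM in endothelial cells and near 0 elsewhere, Jag2 peaks in epidermal cells, Notch3 and Heyl in mural cells, and Hes1 reaches 376 and 424 CPM in mast and other leukocyte cells.

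The order of classes depended in part on how cells were put into classes. When each cell took its class from its own marker UMIs, the same class came first for 5 of the 10 genes in the control library: Notch1, Jag1 and Heyl were then highest in glial cells, Notch2 in mural cells and Notch3 in muscle cells. Dll1, Dll4, Jag2, Hes1 and Hey1 kept their first class there. In the mutant library Jag1 and Heyl were then highest in glial cells. Thinning to 3000 UMIs put control Dll1 first in epidermal, control Hey1 in mural, control Heyl in glial and mutant Hey1 in endothelial cells. When hemoglobin and mitochondrial UMIs were left out of the totals, control Notch2 came first in erythroid cells at 49.2 CPM. Dll4, Jag2 and Hes1 kept their first class under all these settings in both libraries.

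For each gene the 2 genes with the most similar pattern over 19 class and library sums of at least 50 cells were taken from 8973 genes, by the Pearson correlation of log2 values with 5 CPM added. These sums come from only 2 libraries, so the values are descriptions. Dll4 was most like Aplnr (r = 0.999) and Sox7 (0.999), both endothelial genes. Notch3 was most like the smooth muscle actin gene Acta2 (0.931) and Fap (0.926), and Jag2 most like the junction receptor gene Cxadr (0.949) and Rassf9 (0.947). Notch1 resembled Nr2f6 (0.905) and Mrpl58 (0.892), Heyl resembled Ncald (0.909) and Cdh2 (0.890), and Hey1 resembled Sept4 (0.905) and Ppp1r14a (0.893). The others had lower values: Jag1 with Iffo2 (0.875) and Uaca (0.848), Notch2 with Meis1 (0.873) and Cd63 (0.832), Hes1 with Meis2 (0.871) and Cks2 (0.845), and Dll1 with Bmpr1b (0.809) and Mrpl47 (0.808). Between the 10 genes themselves the highest value joined Notch1 and Jag1 (0.822) and the lowest Notch1 and Notch2 (-0.637).

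The comparison of the mutant with the control library asks how Notch genes stand in each class when Hedgehog signalling is activated in the dermis. A gene counted as measured in a class with at least 10 CPM in either library, and as higher or lower at a ratio of at least 1.5. In most classes the Notch genes lay within that range. Of 4 measured in dermal cells 1 was higher, where 8.91% of all genes measured there passed the same fold in either direction. None passed of 5 in epidermal cells (6.73% of all genes), of 7 in muscle cells (3.48%), of 7 in mural cells (13.6%), of 2 in macrophages (8.99%) and of 2 in mast and other leukocyte cells (12.5%). In endothelial cells 1 of 6 passed (15.9%), in glial cells 1 of 4 (14.1%), in melanoblasts 1 of 5 (35.6%) and in erythroid cells 3 of 4 (29.9%). These counts were not stable in every class. With thinning to 3000 UMIs 2 passed in epidermal, 1 in muscle, 3 in mural and 2 in glial cells and 0 in endothelial cells, with TMM scaling 1 in epidermal and 1 in muscle cells, and with the class of each cell from its own marker UMIs 4 in endothelial and 4 in mural cells. The median log2 ratio of the measured Notch genes, with 1 CPM added to both levels, was 0.05 in dermal, -0.14 in epidermal, 0.07 in muscle, 0.08 in endothelial, 0.12 in mural and 0.21 in glial cells. Over all measured genes it was 0.02, 0.06, 0.00, -0.01, 0.02 and 0.02 in the same order.

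In dermal cells the 3 receptors went different ways. Notch1 was at 15.6 and 19.5 CPM, a mutant to control ratio of 1.25 (1.12 to 1.39), and Notch3 at 9.40 and 14.2 CPM, a ratio of 1.51 (1.32 to 1.72). Notch2 was lower at 42.0 and 31.3 CPM, a ratio of 0.746 (0.688 to 0.807), and Hes1 at 125 and 109 CPM had a ratio of 0.874 (0.836 to 0.912). Each of these intervals leaves out 1, and only Notch3 passed 1.5, which it did not when cluster 23 was counted as dermal (1.45, 1.28 to 1.64), nor with called doublets kept, TMM scaling or thinning. With 1 CPM added to both levels, its log2 ratio was 0.50, 0.52 and 0.46 with doublets kept, TMM scaling and thinning, against 0.54 as reported. Notch3 also did not pass when the Notch genes were used in clustering, and it did not reach a minimum of 20 CPM. With cluster 23, Notch1 had a ratio of 1.2, Notch2 0.758 and Hes1 0.880, and 0 of 4 passed (9.32% of all genes). Dissociation genes such as Fos and Egr1 had a median log2 ratio of 0.40 in dermal cells and hemoglobin genes 2.84, and their part in these ratios was not tested. The receptor directions were not particular to the dermis. Notch2 was below 1 in every class, with intervals that left out 1 only in dermal, muscle and erythroid cells. Notch3 was also above 1 in muscle (1.19), mural (1.43), glial and erythroid cells, and below 1 in epidermal (0.914) and mast and other leukocyte cells.

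Within the dermal clusters shared by the libraries the directions of Notch1 and Hes1 were seen again, and that of Notch3 was not. In the 7 dermal clusters with at least 20 cells of each library, Notch1 was higher in mutant cells in 6, with ratios from 0.797 to 2.97, and Hes1 was lower in 6, with ratios from 0.541 to 1.17. Notch2 was lower in 5 of 7 (0.584 to 1.12), while Notch3 was higher in 3 and lower in 4 (0.794 to 2.12). These ratios leave out clusters 22 and 24, which held 1096 and 1525 of the 4128 mutant dermal cells. Mutant dermal cells with a Ptch1 UMI, described below, had Hes1 near the control dermal level, and those without one had it lower. Among clusters made up almost wholly of mutant cells, cluster 22, led by the condensate genes Gal and Foxd1 and by Cdkn1a, had Notch3 at 24.3 CPM, and cluster 24, led by Hhip and Ptch1, at 11.5 CPM. Notch2 was at 23.9 and 24.2 CPM in these clusters, below its level in each of the 7 control cluster sums named here, which lay between 27.0 and 61.7 CPM. Mutant cells of the shared clusters 0, 1 and 4 had Notch2 at similarly low levels of 20.9, 23.1 and 22.0 CPM, from 11, 11 and 10 UMIs. Hes1 varied widely inside the dermis: it was at 222 CPM in control cells of cluster 3, led by Aspn, and at 37.0 CPM in control and 20.0 CPM in mutant cells of cluster 8, led by Col14a1.

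In epidermal cells Notch1 and Jag2 stood higher and Hes1 lower in the mutant library. Notch1 was at 49.0 and 66.2 CPM, a ratio of 1.35 (1.18 to 1.56), and Jag2 at 32.2 and 42.1 CPM, a ratio of 1.31 (1.10 to 1.56). Hes1 was at 207 and 143 CPM, a ratio of 0.690 (0.640 to 0.745), from 1194 and 1592 UMIs. Dll1 had a ratio of 0.702 with an interval that reached 1 (0.495 to 1), and Jag1 had 0.905 (0.699 to 1.18). Hes1 was the Notch gene farthest from 1 in this class, just inside the 1.5-fold limit. The Hes1 difference was seen in both large epidermal clusters, at 196 and 132 CPM in cluster 7 (ratio 0.673, 0.606 to 0.748) and 208 and 130 CPM in cluster 17 (0.628, 0.554 to 0.711). Epidermal dissociation genes had a median log2 ratio of -0.07, close to 0, and hemoglobin genes one of 2.5; epidermal cells of the control library were deeper, at medians of 9836 and 7618 UMIs per cell over clusters 7 and 17. After thinning to 3000 UMIs the log2 ratio of Hes1 was -0.52, against -0.53 before.

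Muscle cells had the receptor ratios in the same order as dermal cells, Notch3 above Notch1 above Notch2. Notch2 was at 22.2 and 14.9 CPM, a ratio of 0.671 (0.529 to 0.844), Notch1 had a ratio of 1.05 (0.854 to 1.29) and Notch3 1.19 (1.01 to 1.41). Dll1 did not differ beyond counting error, at a ratio of 0.988 (0.776 to 1.25), and neither did Hey1, at 1.10 (0.913 to 1.33). Hes1 had 0.808 (0.719 to 0.907) and Heyl 1.45 (1.10 to 1.90), although Heyl went the other way after thinning, with a log2 ratio of -0.14 against 0.49 before. Cluster 15, which is low in Hes1 as described below, held 20.1% of control and 28.7% of mutant muscle cells. Within muscle clusters the Hes1 ratio was 0.891 (0.792 to 1.002) in cluster 13 and 2.05 (0.847 to 5.16) in cluster 15, so the lower muscle level was not seen in both clusters. Dissociation genes had a median log2 ratio of 0.66 in muscle cells, whose part was not tested.

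In the smaller classes counting error was wide. Mural cells had Notch3 at 52.2 and 74.9 CPM, a ratio of 1.43 (1.07 to 1.92), and ratios of 1.10 (0.882 to 1.36) for Notch1, 0.714 (0.421 to 1.17) for Notch2, 1.17 for Jag1, 0.921 for Hes1, 1.07 for Hey1 and 1.09 for Heyl. Endothelial cells had Dll4 at a ratio of 1.14 (0.687 to 1.89), Notch1 at 0.992 (0.744 to 1.32), Jag1 at 0.809 (0.426 to 1.52), Hes1 at 0.737 (0.518 to 1.04) and Hey1 at 1.25 (0.678 to 2.34). A difference in these genes was not detectable at this depth except for mural Notch3. Jag2 was the endothelial gene past 1.5, at 1.57 (0.840 to 3.02) from 18 and 28 UMIs, and after thinning its log2 ratio was -0.16 against 0.62 before. In glial cells Hes1 was past 1.5 at a ratio of 1.65 (1 to 2.68) from 50 and 28 UMIs, and its log2 ratio was 0.08 with called doublets kept against 0.70 without them. Glial Notch1, Jag1 and Heyl had ratios of 1.13, 1.2 and 0.901, with intervals on both sides of 1.

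**Figure D2:**
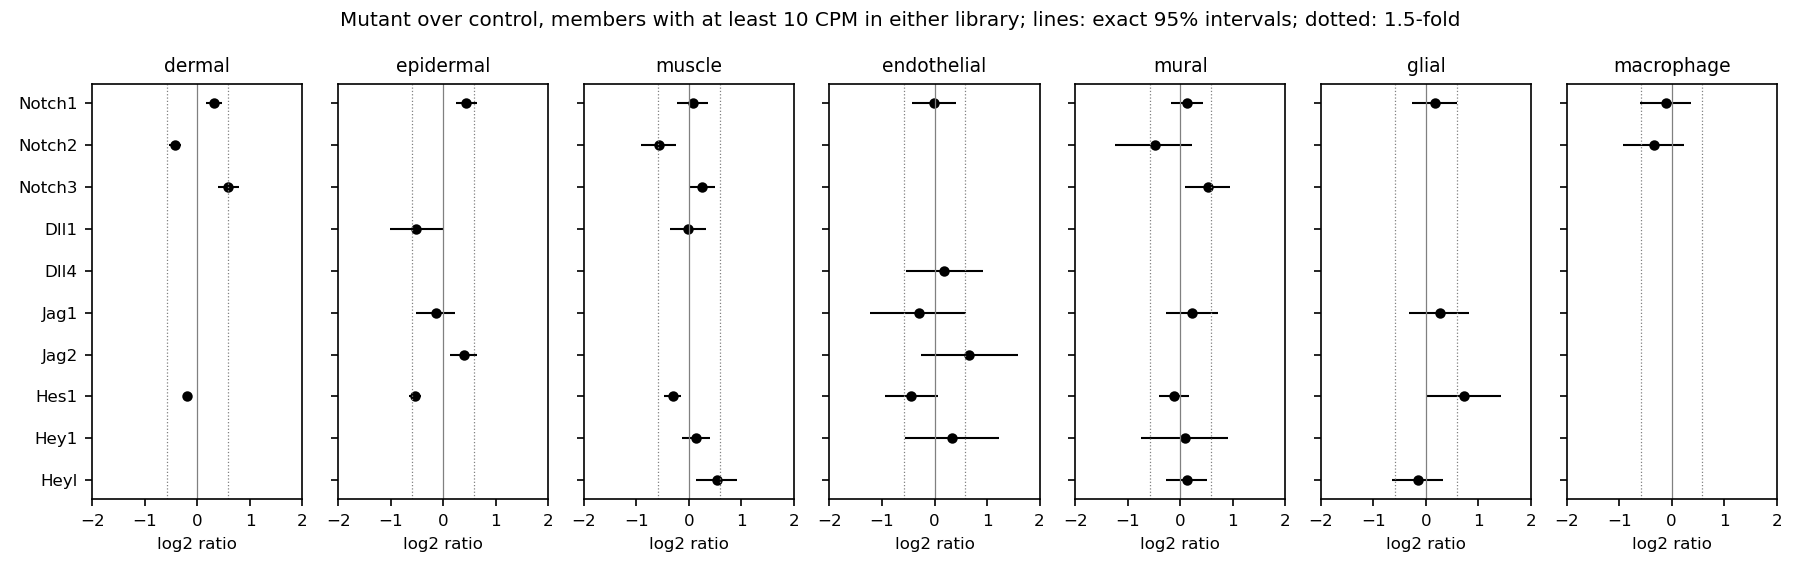
Log2 ratio of mutant to control level (x axis) for each Notch gene (y axis) with at least 10 CPM in either library, in 7 cell classes; lines are exact 95% intervals for counting error and dotted lines mark 1.5-fold either way. Dermal Notch3 lies at the dotted line, epidermal Hes1 just inside it, and the endothelial and glial intervals are wide.

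The Notch genes with the most UMIs in blood cells were Hes1, Notch2 and Notch1, and in macrophages Notch1 led with 94 control and 62 mutant UMIs. In the erythroid class Notch1 had 2 UMIs in the control and 45 in the mutant library (ratio 6.75, 1.76 to 57.4), Notch2 had 23 and 34 (0.443, 0.254 to 0.788) and Notch3 had 4 and 28 (2.10, 0.734 to 8.24). This class held 63 control and 251 mutant cells and carried the dermal marker sums given above, and the part of RNA from other cells in its values was not tested. Mast and other leukocyte cells had Hes1 at a ratio of 1.13 (1.01 to 1.26) and Notch2 at 0.983 (0.671 to 1.44). Macrophage Notch1 and Notch2 had ratios of 0.927 (0.662 to 1.29) and 0.789 (0.525 to 1.17). In melanoblasts Notch3 had 0 UMIs in the control and 5 in the mutant library, in 73 and 49 cells.

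Notch genes also differed between parts of the muscle class. Cells with a UMI of Myog, the factor of muscle differentiation, numbered 452 in the control and 377 in the mutant library, and cells with a UMI of Pax7, the factor of muscle progenitors, and none of Myog numbered 323 and 190. The ligand Dll1 was at 25.8 CPM in Myog cells and 7.08 CPM in Pax7 cells of the control library, a ratio of 3.65 (2.54 to 5.37), and at 25.6 and 4.77 CPM in the mutant library, a ratio of 5.38 (2.71 to 12.2). The receptor Notch3 lay the other way, at 12.1 against 43.2 CPM (0.280, 0.215 to 0.362) and 11.7 against 60.9 CPM (0.191, 0.130 to 0.276). Ligand and receptor thus stood on opposite sides of the split in both libraries.

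The effectors lay on the side of Notch3. Hey1 was at 9.62 CPM in Myog cells against 38.1 CPM in Pax7 cells in the control library (0.252, 0.188 to 0.335) and at 10.8 against 42.9 CPM in the mutant library (0.251, 0.166 to 0.375). Hes1 was at 40.8 against 108 CPM (0.379, 0.327 to 0.439) and 33.8 against 84.2 CPM (0.401, 0.313 to 0.513), and Heyl at 6.70 against 13.6 CPM (0.494, 0.333 to 0.728) and 10.5 against 22.8 CPM (0.461, 0.287 to 0.734). Notch2 was also lower in Myog cells, at ratios of 0.629 (0.488 to 0.810) and 0.565 (0.348 to 0.921). Notch1 was the receptor that lay with Dll1, at 27.0 against 16.9 CPM (1.59, 1.23 to 2.08) and 25.9 against 17.5 CPM (1.48, 0.985 to 2.28). Of 7 measured Notch genes 7 passed 1.5-fold in the control library, where 22.9% of all genes did, and 6 of 7 in the mutant library, where 30.8% did.

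**Figure D3:**
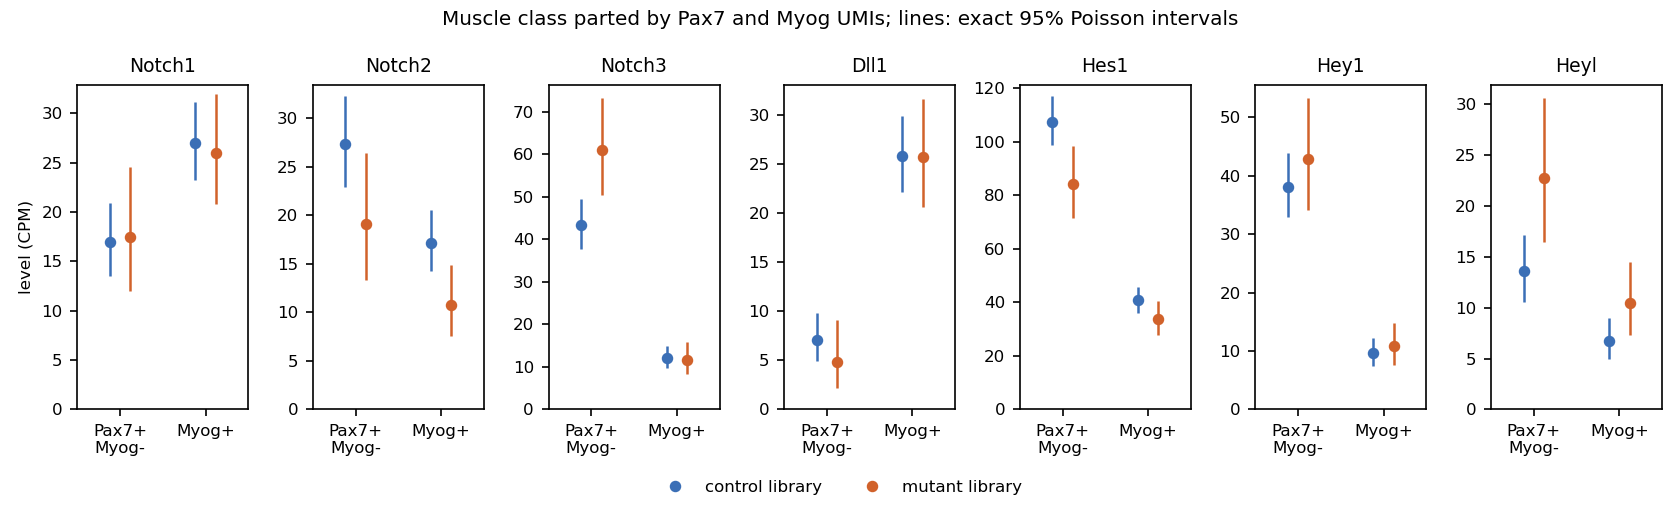
Level of 7 Notch genes (y axis, CPM) in muscle cells with a Pax7 UMI and no Myog UMI and in muscle cells with a Myog UMI, in the control and mutant libraries; lines are exact 95% Poisson intervals. Dll1 and Notch1 lie higher on the Myog side and Notch2, Notch3, Hes1, Hey1 and Heyl on the Pax7 side in both libraries.

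Cells with UMIs of both Pax7 and Myog, 81 in the control and 65 in the mutant library and counted among the Myog cells, had values between the groups for several genes. In the control library Dll1 was at 18.5 CPM, Notch3 at 30.6 CPM, Hes1 at 69.0 CPM and Hey1 at 20.6 CPM in them. In the mutant library Notch3, Hes1 and Hey1 also lay between the groups, at 26.3, 62.9 and 27.8 CPM. Dll1 at 27.8 CPM and Heyl at 30.7 CPM stood above both groups there, with intervals that overlapped the higher group. The clusters gave the split in a sharper form. Cluster 15, led by Tnnt2, Myog and Mylpf, had Hes1 at 3.94 CPM against 91.5 CPM in cluster 13 in the control library (ratio 0.0430, 0.0206 to 0.0794) and at 8.07 against 81.5 CPM in the mutant library (0.0990, 0.0536 to 0.168). Notch3 had 3 and 2 UMIs in cluster 15, against 32.8 and 44.3 CPM in cluster 13, and Hey1 had 2 UMIs in each library against 28.5 and 35.4 CPM. Dll1 was at 35.0 against 12.2 CPM (2.86, 2.18 to 3.74) and 29.99 against 10.8 CPM (2.78, 1.85 to 4.17). Clusters were made from these same cells, though without the Notch genes, so these are descriptions. Hes6, a Hes family gene that opposes Hes1, stood at 286 against 98.5 CPM in Myog and Pax7 cells of the control library and at 342 against 104 CPM in the mutant library. Median depth was similar on both sides, at 14622.5 and 15040 UMIs per cell in the control and 8548 and 9433.5 in the mutant library. The summed dissociation genes were lower in Myog cells, at 186 against 307 CPM and 266 against 390 CPM, and their part was not tested.

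Inside the endothelial class the ligands and Hey1 gathered in cells with arterial genes. Cells with a UMI of the connexin genes Gja4 or Gja5 or of Sox17 numbered 66 of 142 in the control and 54 of 161 in the mutant library. Hey1 had 19 UMIs in them against 2 in the other control cells, 29.4 against 3.12 CPM (ratio 9.41, 2.27 to 83.4), and 23 against 3 in the mutant library, 46.0 against 3.88 CPM (11.9, 3.58 to 61.7). Dll4 was at 40.2 against 9.35 CPM (4.29, 1.73 to 12.8) in the control and 42.0 against 19.4 CPM (2.16, 1.06 to 4.51) in the mutant library. Jag1 was at 32.4 against 6.24 CPM (5.20, 1.76 to 20.8) and 28.0 against 7.76 CPM (3.61, 1.30 to 11.5). These genes lay higher in the arterial gene cells of both libraries. The split did not set apart cluster 20, led by lymphatic genes and described below, with 41 control and 47 mutant cells. In that cluster Jag1 had 1 and 2 UMIs, Hey1 3 and 1, and Dll4 5 and 9. Its part in the split was not tested.

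The other endothelial Notch genes showed less of this split. Jag2 had ratios of 3.47 (1.09 to 14.5) and 2.06 (0.915 to 4.77), Notch1 1.34 (0.886 to 2.03) and 1.51 (1 to 2.29), and Hes1 0.920 (0.580 to 1.46) and 0.679 (0.367 to 1.21). In all, 4 of 6 measured Notch genes passed 1.5-fold in the control library, where 31% of all genes did, and 5 of 6 in the mutant library, where 30.8% did. Hemoglobin genes were also higher in the arterial gene cells, at 9108 against 7282 CPM in the control and 32040 against 7507 CPM in the mutant library, and their part was not tested.

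**Figure D4:**
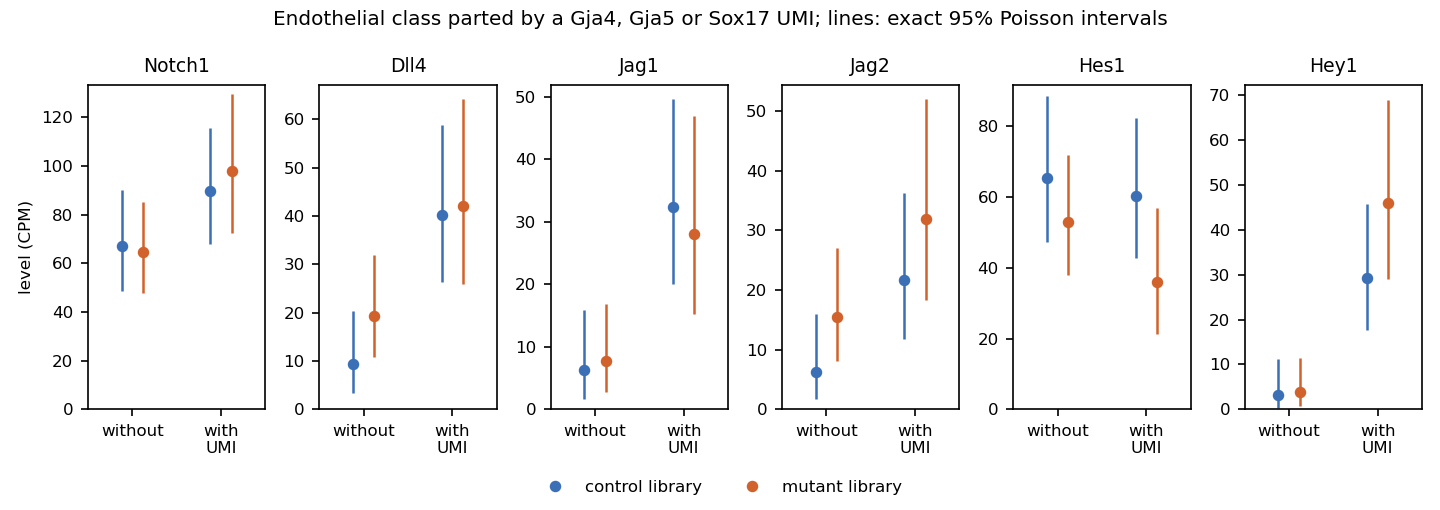
Level of 6 Notch genes (y axis, CPM) in endothelial cells without and with a UMI of Gja4, Gja5 or Sox17, in the control and mutant libraries; lines are exact 95% Poisson intervals. Hey1, Dll4 and Jag1 lie higher in the cells with such a UMI in both libraries, and the intervals of Hes1 overlap.

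Endothelial cells also formed a cluster led by lymphatic genes, cluster 20, with Ccl21a, Flt4 and Prox1 among its leading genes. In control cells Notch1 was at 121 CPM there and 60.0 CPM in the other endothelial cluster, 19 (ratio of 19 to 20 of 0.497, 0.330 to 0.752), and in mutant cells at 86.8 and 74.7 CPM (0.860, 0.548 to 1.38). Jag1 had 24 UMIs in cluster 19 and 1 in cluster 20 in the control library, and 18 and 2 in the mutant library. Hes1 was at 54.5 CPM in cluster 19 and 82.2 CPM in cluster 20 in the control library, and at 32.6 and 86.8 CPM in the mutant library. Notch1 and Hes1 were thus present in both clusters, and Jag1 came mostly from cluster 19. Dll4 had 27 and 5 UMIs in the control and 27 and 9 in the mutant library, with ratios of 2.34 (0.887 to 7.77) and 1.02 (0.465 to 2.46).

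In the epidermis a small cluster held the highest Notch1 and Notch3 levels. Cluster 21, with 27 control and 72 mutant cells (4.87% and 5.18% of epidermal cells), was led by genes that include Krtdap, Sfn, Krt17 and Perp, genes of differentiating and outer layer keratinocytes. It was singled out after its values were seen. Notch1 was at 278 CPM (215 to 354) there against 39.2 CPM in the other epidermal clusters of the control library, a ratio of 7.10 (5.31 to 9.40), and at 306 CPM (264 to 353) against 52.1 CPM in the mutant library, a ratio of 5.88 (4.96 to 6.94). Notch3 had 15 UMIs in cluster 21 and 2 in the others in the control library, 63.2 against 0.361 CPM, and 23 and 7 in the mutant library, 37.1 against 0.664 CPM (ratio 55.8, 23.2 to 154). Thus 15 of 17 control and 23 of 30 mutant epidermal Notch3 UMIs came from this cluster. Notch2 had 4 control and 7 mutant UMIs there, with ratios of 1.80 (0.472 to 4.88) and 1.67 (0.650 to 3.63) to the others, so a difference was not detectable at this depth.

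Jag1 and Hes1 were also higher in cluster 21, and Jag2 was lower. Jag1 was at 63.2 against 14.4 CPM (4.38, 2.34 to 7.66) in the control and 75.7 against 11.3 CPM (6.71, 4.68 to 9.48) in the mutant library, and Hes1 at 346 against 201 CPM (1.72, 1.36 to 2.16) and 337 against 131 CPM (2.57, 2.21 to 2.97). Nrarp, a feedback target of Notch, was at 177 against 7.94 CPM (22.3, 14.3 to 34.8) and 148 against 7.40 CPM (20.0, 14.7 to 27.4). Jag2 had 0 UMIs in cluster 21 of the control library, against 33.6 CPM in the others. With 3 counts put in place of 0 it was 2.65-fold lower, and the interval reached down to 2.14-fold. In the mutant library Jag2 had 1 UMI in cluster 21, 1.61 against 44.5 CPM (ratio 0.0362, 0.000915 to 0.203). Dll1 had 0 UMIs there in both libraries. For the mutant library, 3 counts put in place of 0 make it 1.57-fold lower than 7.59 CPM, and the interval reached down to 1.25-fold. By level, Jag1 thus stood highest in cluster 21 together with Notch1 and Notch3, and Jag2 and Dll1 lay almost wholly outside it. Jag1 was not confined to cluster 21: the other epidermal clusters held 80 of 95 control and 119 of 166 mutant epidermal Jag1 UMIs. Summed dermal markers were at 674 and 504 CPM in cluster 21 and the others in the control library and at 430 and 388 CPM in the mutant library, mural markers at 25.3 and 17.9 CPM and at 53.2 and 20.6 CPM, and epidermal markers at 6477 and 3425 CPM and at 7746 and 4244 CPM. Their part in the Notch levels of cluster 21 was not tested.

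**Figure D5:**
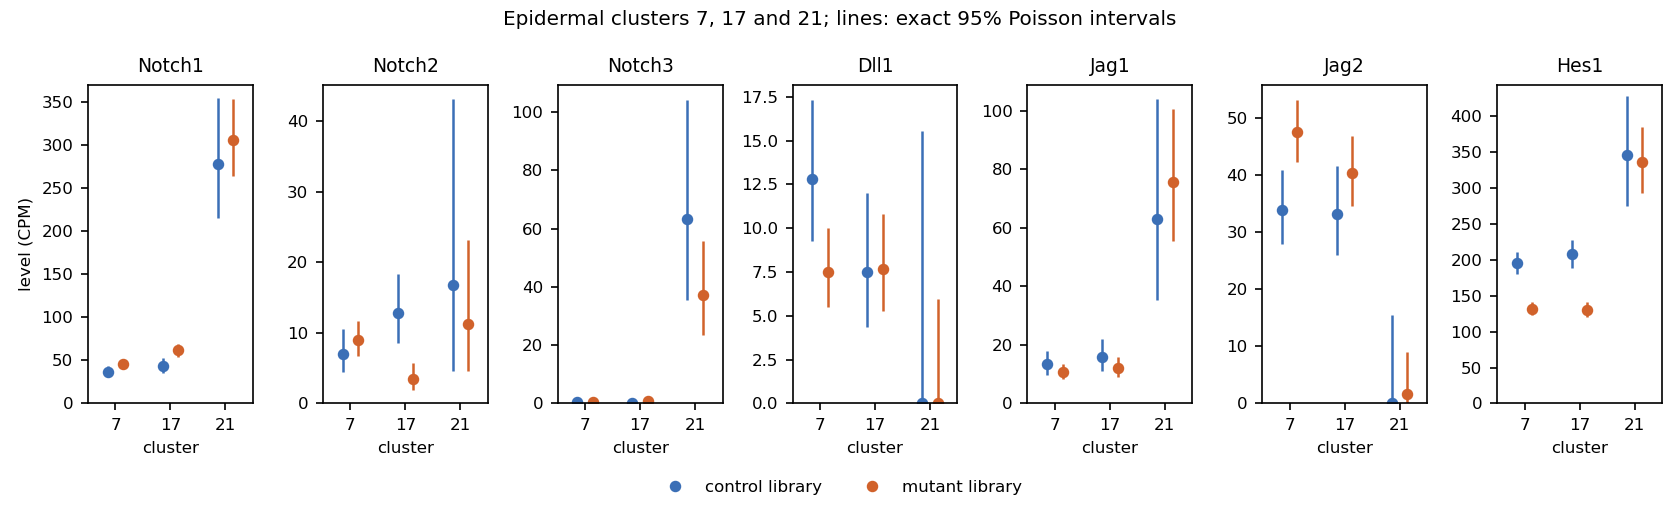
Level of 7 Notch genes (y axis, CPM) in epidermal clusters 7, 17 and 21 (x axis) of the control and mutant libraries; lines are exact 95% Poisson intervals. Notch1, Notch3, Jag1 and Hes1 are highest in cluster 21, where Jag2 and Dll1 are at or near 0, and Hes1 is lower in the mutant than in the control library in clusters 7 and 17.

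The mutant to control ratio of Hes1 inside cluster 21 was 0.975 (0.751 to 1.27), beside ratios of 0.673 and 0.628 in clusters 7 and 17. The difference between these ratios was not tested. A UMI of the suprabasal keratins Krt1 or Krt10 was found in 259 control and 581 mutant epidermal cells. After thinning, a Krt10 UMI was in 13.3% and 14.8% of epidermal cells, but also in 9.54% and 8.43% of dermal and 6.84% and 9.76% of muscle cells, so 1 such UMI hardly marks suprabasal cells. Between epidermal cells with and without it 0 of 5 control and 0 of 4 mutant Notch genes passed 1.5-fold, where 5.46% and 1.78% of all genes did; 5 and 3 passed after thinning, and 1 and 5 with at least 2 UMIs of these keratins. Nothing is read from this split. A UMI of the placode gene Dkk4 was found in 82 of 554 control epidermal cells and in 2 of 8737 control dermal cells. All 1390 mutant epidermal cells lacked one, so the cells were split by Dkk4 in the control library only. The part of this difference in the epidermal mutant to control ratios was not tested. In that split 0 of 6 Notch genes passed (13.6% of all genes), with Hes1 at 219 CPM in Dkk4 cells and 204 CPM in the rest, but 3 passed after thinning and 1 with at least 2 Dkk4 UMIs.

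In the mutant dermis Hes1 was lower in cells with condensate genes, the genes of the cell group that forms beneath a hair placode. In the 627 cells with UMIs of at least 2 of Foxd1, Sox2, Sox18 and Gal it was at 63.6 CPM, against 117 CPM in the other 3501 cells (0.544, 0.475 to 0.620; the control library held 1 such cell), and it was the 1 of 4 measured Notch genes past 1.5-fold, where 16% of all genes passed. Notch1, Notch2 and Notch3 had ratios of 0.799, 0.802 and 0.963. Dll1 was far below 10 CPM in the dermis, and 9 of its 12 UMIs in mutant dermal cells fell in these 627 cells, 2.33 against 0.138 CPM (16.9, 4.22 to 97.0). Its level in them was not above that of mutant macrophages, taken as background, at 3.34 CPM, so expression of Dll1 in these cells is not read from it. Hes1 was also lower in dermal cells with a UMI of the Wnt effector Lef1, at 102 against 130 CPM in the control (0.789, 0.741 to 0.840) and 78.2 against 119 CPM in the mutant library (0.657, 0.595 to 0.725). In that split 0 of 3 measured Notch genes passed 1.5-fold in the control library (13% of all genes) and 1 of 4 in the mutant library (14.1%). The mutant count was 0 with called doublets kept and with the class of each cell from its own marker UMIs, and the control count was 1 after thinning and 3 with at least 2 Lef1 UMIs. Summed dissociation genes were lower in Lef1 cells, at 362 against 636 CPM in the control and 735 against 928 CPM in the mutant library. In mutant cells with condensate genes they were at 731 against 907 CPM, and their part was not tested.

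A UMI of the Hedgehog target Ptch1 went with different values in the mutant dermis. It was found in 51.4% of mutant dermal cells, against 9.97% of mutant macrophages and 50.2% of mutant erythroid cells, and after thinning in 39.1%, 3.13% and 29.1%. In the mutant dermis Hes1 was at 124 CPM in the 2120 cells with a Ptch1 UMI and 87.3 CPM in the 2008 without (1.42, 1.31 to 1.54), and Notch2 was at 25 against 40.2 CPM (0.621, 0.539 to 0.715). Of 4 measured Notch genes 1 passed 1.5-fold (13.6% of all genes). In the control library a Ptch1 UMI was in 3.70% of dermal cells and 7.39% of macrophages, at or below background, so nothing is read from the control split, in which 0 of 3 passed (2.15% of all genes). Within the mutant dermis Hes1 thus lay higher with Ptch1 and lower with Lef1 and the condensate genes. Cells with a Ptch1 UMI were deeper, at a median of 6532.5 against 4950 UMIs, and after thinning 0 of the Notch genes passed, with ratios of 1.22 (1.08 to 1.37) for Hes1 and 0.672 (0.535 to 0.840) for Notch2. The count was also 0 with called doublets kept, with the class of each cell from its own marker UMIs and with at least 2 Ptch1 UMIs. Summed dissociation genes were at 807 CPM in mutant dermal cells with a Ptch1 UMI and 984 CPM in those without, and their part was not tested.

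The wider pathway was followed through 44 further genes: other receptors, ligands and targets, glycosyltransferases, gamma-secretase subunits, ubiquitin ligases and nuclear cofactors. In dermal cells 25 were measured, 1 higher and 1 lower, against 4.48% and 4.43% of all genes. The lower gene was Tle1, a Groucho corepressor used by Hes proteins, at 24.8 and 15.8 CPM, a ratio of 0.637 (0.569 to 0.711). The median log2 ratio of the list was -0.07. In epidermal cells 1 of 26 was higher and 1 lower (4.06% and 2.67% of all genes), and in muscle cells 0 of 25 in either direction. In endothelial cells 1 of 31 was higher and 7 lower (7.11% and 8.8% of all genes), among them Dlk1 at 30.3 and 13.3 CPM (0.441, 0.234 to 0.798) and Notch4, the endothelial receptor, at 24.8 and 14.9 CPM (0.601, 0.322 to 1.09). In mural cells 4 of 28 were higher and 2 lower (7.14% and 6.43% of all genes), and in glial cells 1 of 30 higher and 3 lower (8.32% and 5.8%). As with the 10 genes, most of the list lay within 1.5-fold in these 6 classes.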

How the data were processed

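Single-cell RNA was measured in 1 control and 1 mutant library of 2 to 3 pooled embryos each, with 10x Genomics 3′ chemistry after trypsin dissociation and a sort with DAPI, with both libraries made side by side and run on 1 lane, per the labels' protocols. The deposited matrices hold raw UMI counts per gene and barcode, made by the authors with Cell Ranger 5.0.1 on mm10, per the submitters' processing notes. No listed barcode had fewer than 500 UMIs. The genes and lists were chosen with earlier results of these data known.

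Barcodes with at least 1000 genes and at most 10% mitochondrial UMIs were kept (12120 control and 8783 mutant). Scrublet in scanpy 1.11.5, at an expected rate of 8%, called 567 (4.68%) and 262 (2.98%) doublets, which were removed. Cells of both libraries were clustered together without batch correction (2000 variable genes without the Notch genes and the wider list, 30 components, 15 neighbours, Leiden resolution 1.0). Clusters were named from 12 marker lists, needing at least 3 markers at 10 CPM and no more markers of another class than of their own among the 10 leading genes. UMIs were summed per class and library and scaled to 1000000 (CPM). Levels carry exact Poisson and ratios exact conditional binomial 95% intervals, which cover counting error only and are narrower than any spread between embryos, since UMIs of a cell are not independent draws. Ratios are of CPM, and log2 ratios in the text, single ones and medians, have 1 CPM added to both levels. A fold against 0 UMIs uses 3 counts. The interval step was tested on simulated counts. Named were the 10 genes, the splitting genes and, from the wider list, genes of at least 20 CPM with the largest ratios past 1.5; Nrarp, Hes6 and cluster 21 were chosen after their values were seen. Alternatives changed the filters, doublet removal, clustering, class assignment, scaling, depth, CPM minimum and fold; counting cluster 23 as dermal was added after the data were seen. Intervals came from scipy 1.17.1, clusters from igraph 0.11.9, components from scikit-learn 1.9.0, sums from numpy 2.4.6 and pandas 2.3.3, and figures from matplotlib 3.10.9, in Python 3.11.15. One gene of the wider list is not reported here.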

Additional observations from a re-analysis of the deposited data

How the results depend on the processing

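Of 424 recomputed log2 ratios of single Notch genes, 412 stayed within counting error of the value reported, 11 moved beyond it, and 1 that had passed 1.5-fold was reversed, endothelial Jag2 at -0.16 after thinning to 3000 UMIs. The sign also changed for 13 values of genes within 1.5-fold, among them muscle Heyl, at -0.14 after thinning against 0.49. Of 160 recomputed counts, 109 were within 1.5 times the count reported. The others follow by setting, as numbers of Notch genes past 1.5-fold unless said, and the cause of each shift was not tested beyond what the setting itself does. With called doublets kept, the count was 0 in dermal cells, 1 in macrophages, and 0 for the Lef1 and 0 for the Ptch1 split of mutant dermal cells. With 1500 genes and 5% mitochondrial UMIs it was 1 in mural cells, and with the Notch genes used in clustering 0 in dermal cells. With the class of each cell taken from its own marker UMIs it was 4 in endothelial, 4 in mural and 2 in glial cells, 7 for the endothelial split of the control library, and 0 for the Lef1 and 0 for the Ptch1 split of mutant dermal cells, and 5 genes kept their leading class in the control library. With TMM scaling it was 0 in dermal, 1 in epidermal and 1 in muscle cells. Thinning to 3000 UMIs gave 0 in dermal, 2 in epidermal, 1 in muscle, 0 in endothelial, 3 in mural, 2 in glial cells and 1 in macrophages; it gave 5 (control) and 3 (mutant) for the Krt1 or Krt10 split, 3 for the Dkk4 split, 1 for the Lef1 and 1 for the Ptch1 split of control dermal cells and 0 for the Ptch1 split of mutant dermal cells. With at least 2 UMIs of the splitting genes the counts were 1 (control) and 5 (mutant) for Krt1 or Krt10, 1 for Dkk4, 3 for Lef1 and 3 for Ptch1 in control dermal cells and 0 for Ptch1 in mutant dermal cells. A minimum of 20 CPM gave 0 in dermal cells, and for the wider list 0 in epidermal and 4 in endothelial cells. Without a minimum the counts were 5 in dermal, 5 in endothelial, 1 in mural and 5 in glial cells and 4 in macrophages, and for the wider list 9 in dermal, 10 in epidermal, 7 in muscle and 14 in endothelial cells. At a fold of 2 the wider list had 1 in dermal, 0 in epidermal and 2 in endothelial cells. With cluster 23 counted as dermal the count was 0. The muscle splits were within 1.5 times the reported counts under every setting run for them. Depth limits the endothelial, mural, glial, melanoblast and erythroid classes most, where 1 gene past 1.5-fold can rest on fewer than 60 UMIs. No paired analysis was possible because each group has 1 library.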

Other observations

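Other Notch pathway genes also marked single classes. Nrarp, a feedback inhibitor induced by Notch, was highest in endothelial cells at 76.8 CPM in the control and 85.6 CPM in the mutant library, and next in mural cells at 43.7 and 35.3 CPM. Mfng, a glycosyltransferase that changes how receptors respond to ligands, was at 75.3 and 90.3 CPM in endothelial cells. Within that class both came mostly from cluster 19: Nrarp had 97 UMIs there and 2 in the lymphatic gene cluster 20 in the control library, and 99 and 10 in the mutant library, and Mfng had 90 and 7, and 108 and 7. Notch4 had 31 UMIs in cluster 19 and 1 in cluster 20 in the control library, and 19 and 0 in the mutant library. Hes6 was highest in muscle cells at 191 and 236 CPM, and Hey2 was found in mural cells at 22.6 and 24.1 CPM and in glial cells at 20.4 and 26.3 CPM.

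The shared machinery of the pathway was not even across classes. Psen2, a catalytic subunit of gamma-secretase, was at 169 and 149 CPM in melanoblasts and 141 and 157 CPM in mast and other leukocyte cells, against at most 21.2 CPM in endothelial cells. Rbpj, the DNA-binding partner of all Notch receptors, was highest in macrophages at 172 CPM in both libraries, where Hes1 was lowest of all classes, and stood at 52.6 and 55.3 CPM in dermal cells. Hes5, another effector, had 28 UMIs in control and 4 in mutant mural cells. These genes were named after their levels were seen.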
